A study of Homo sapiens with 21 samples.

Results

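10 receptor tyrosine kinase genes that are often altered or studied in glioblastoma were followed in clones of the long-used human glioblastoma line U-87MG: EGFR, ERBB2, ERBB3, PDGFRA, PDGFRB, KIT, MET, AXL, FGFR1 and IGF1R. Members were found by gene symbol, and each gene was read from its probe set with the highest mean over all arrays, which gave 10 of the 18374 genes with a probe set of 1 symbol. The study compared clones that stably carried parkin, a ubiquitin ligase of mitochondrial quality control, with clones that carried the empty vector, on Affymetrix whole-transcript arrays of total RNA from cultured cells. The parkin clones were PK7, PK19 and PK25, with 9 arrays, and the vector clones were V8, V17 and V22, with 12 arrays. Each clone had 3 arrays in an array series. PK7, PK19, PK25 and V22 made up one series of 12 arrays, called the second here, and V8, V17 and V22 the other, called the first, of 9 arrays. The series were read from the scanner file names, and that reading is an assumption. All cells shared the U-87MG background, and each clone is a single stable line, so clone and insert cannot be told apart within a clone. The promoter that drives parkin is not given in the sources used here, and parkin transcript was not analysed here. Nothing says that the arrays of a clone came from separate cultures, so p-values may cover technical spread only.

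Receptor tyrosine kinases sit in the cell membrane, bind growth factors outside the cell and phosphorylate one another and adaptor proteins inside it. They feed the RAS-MAPK and PI3K-AKT chains, and feedback genes such as the Sprouty and DUSP families damp the signal. In glioblastoma EGFR and PDGFRA are the best known of them, and MET, AXL and FGFR1 are studied as parallel routes to the same chains.

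Values are log2 RMA intensities, and array medians lay between 6.21 and 6.37. Of 12 glioma and astrocyte markers, VIM and CD44 were the brightest, at mean log2 intensities of 12.76 and 11.84. CHI3L1 (9.64), SOX9 (8.25), SLC1A3 (8.24) and NES (7.51) also lay above the array medians. CHI3L1 varied by clone, at 3.83 above V22 in PK7 and -1.20 from it in V8. GFAP (6.29), SOX2 (6.21), OLIG2 (5.66) and FABP7 (5.27) lay near or below the array medians, and S100B and AQP4 were among the dimmest 30% of probe sets, below 4.96. In marker lists of other cell types, 3 of 8 endothelial genes and 3 of 8 blood and microglial genes lay below that level, as did 2 of 7 epithelial genes and 1 of 7 neuronal genes. CD68, of the blood and microglial list, was bright at 11.32. Of the neuronal genes 4 stood above and 3 below V22 in PK7 and in PK19, with MAP2 at 1.71 and 2.04 and SNAP25 at 0.45 and 1.33. ERBB3, at a mean of 4.68, and KIT, at a mean of 3.58, also lay below 4.96, so differences in these 2 receptors are near the floor of the array. In bulk RNA fewer cells of a type and less RNA per cell cannot be told apart.

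Each clone was set against V22 of its own series with limma, and a probe set was called at a Benjamini-Hochberg adjusted p under 0.05 over 26947 probe sets. The 3 parkin comparisons share the same V22 arrays, as do those of V8 and V17 among themselves. In PK7, 4 of 10 receptors were called, ERBB2, PDGFRB and FGFR1 higher and PDGFRA lower, where 15.2% of all probe sets were called (7.11% higher and 8.11% lower). In PK19, 2 were called, PDGFRA and FGFR1, both lower, against 14.0% of all probe sets (6.65% higher and 7.40% lower). PK25 had none by limma, with 2 at an unadjusted p under 0.05, where 1.37% of all probe sets were called (0.427% higher and 0.939% lower) and 11.3% had an unadjusted p under 0.05. The vector clone V8 had 1, ERBB2, lower, with 8.00% of all probe sets called (3.78% higher and 4.22% lower). V17 had none by limma and none at an unadjusted p under 0.05, where 0.00% of probe sets were called and 2.71% had an unadjusted p under 0.05. EGFR, ERBB3, KIT, MET, AXL and IGF1R were called in no clone. The median difference over the 10 receptors was -0.0119 in PK7, -0.0741 in PK19 and -0.104 in PK25, beside 0.00246, -0.000449 and 0.0191 over all probe sets.

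**Figure D1:**
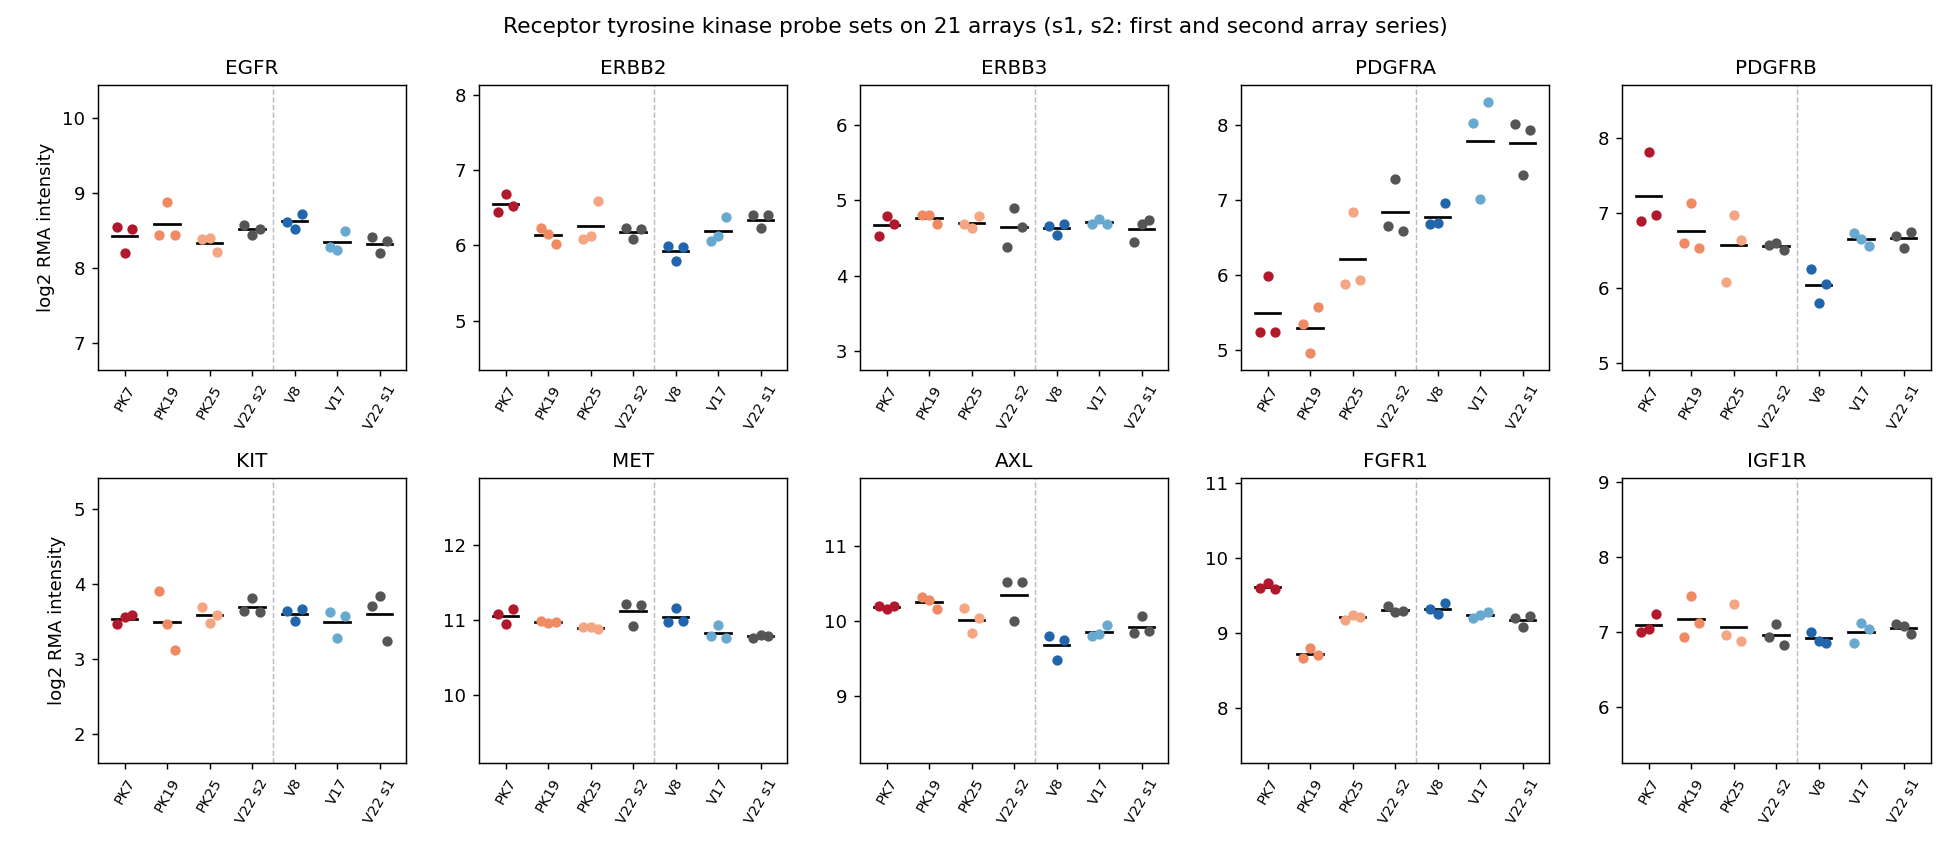
Log2 intensity of the 10 receptors on each of 21 arrays, by clone, with the arrays of the second series left of the dashed line and those of the first right of it; points are arrays, horizontal lines are means of 3 arrays, and every panel spans the same range of log2 units. PDGFRA shows its lowest arrays in PK19 and PK7, and the 3 parkin clones stand at separate levels in FGFR1.

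**Figure D2:**
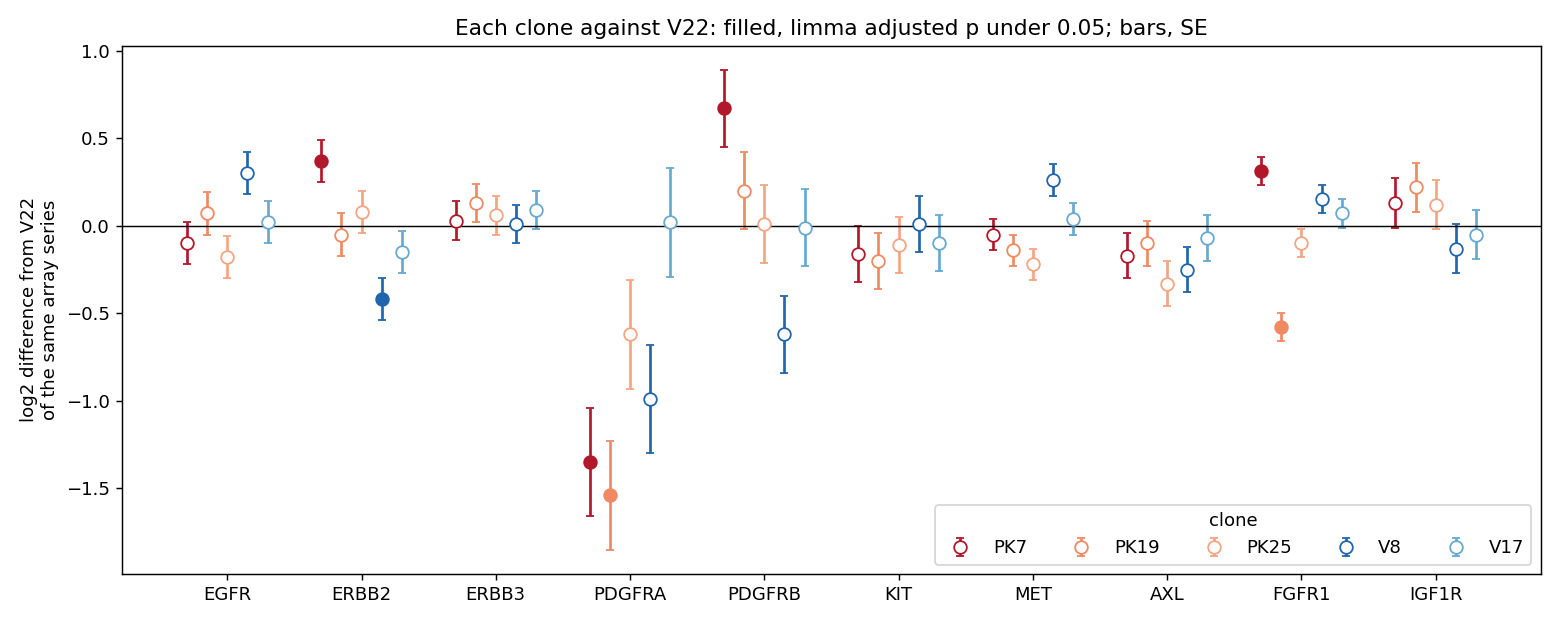
Difference of each clone from V22 of its own series (log2, y axis) for the 10 receptors, with standard errors as bars and filled symbols where limma called the difference. PDGFRA reached -1.35 in PK7 and -1.54 in PK19, and FGFR1 stood at 0.31 in PK7 and -0.58 in PK19.

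The PDGF receptor PDGFRA, which binds PDGF dimers and marks the proneural class of glioblastoma, had the largest differences of the 10. PDGFRA read 5.24, 5.98 and 5.24 in PK7, 5.35, 4.96 and 5.57 in PK19, and 5.88, 6.84 and 5.93 in PK25, against 6.65, 7.28 and 6.58 in V22 of the second series. All PK7 and PK19 arrays lay below all V22 arrays, and the PK25 arrays overlapped V22 through the array of set 2. Set against V22, PDGFRA fell by 1.35 (SE 0.31, n = 3 arrays each, limma adjusted p = 0.0045) in PK7, a 2.55-fold lower level, and by 1.54 (SE 0.31, adjusted p = 0.0014) in PK19, a 2.91-fold lower level. In PK25 the difference was -0.62 (SE 0.31, adjusted p = 0.476).

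In the first series the PDGFRA arrays of V8 stood apart from those of V17 and V22. V8 read 6.67, 6.69 and 6.95 and V17 read 8.02, 7.01 and 8.30, against 8.01, 7.33 and 7.93 in V22 of that series. All V8 arrays lay below all V22 and V17 arrays. The difference of V8 from V22 was -0.99 (SE 0.31, limma adjusted p = 0.058) and that of V17 was 0.02 (adjusted p = 1). The V8 difference was called with the dimmest 30% of probe sets left out (adjusted p = 0.042) and without V22 set 2 (-1.20, adjusted p = 0.041). A replicate block by set number also called it. Differences between a parkin clone's shift and the V8 shift were -0.36 (SE 0.44) for PK7, -0.55 for PK19 and 0.37 for PK25, with adjusted p of 0.764, 0.619 and 0.757. The set 2 arrays of V17 and V22 lay below the other arrays of their clones, and the set 2 arrays of PK7 and PK25 and the set 5 array of V22 lay above theirs. An alternative added after the data were seen left out the set 2 arrays and V22 set 5. It gave PDGFRA differences of -1.38 (PK7), -1.15 (PK19), -0.71 (PK25) and -1.17 (V8). The limma adjusted p were 3.2e-05, 7.6e-05, 0.012 and 0.0003, which would call PK25 and V8 too. Most arrays left out were those just seen to stand off, which narrows the spread (SE 0.12 against 0.31 in PK7). These p-values and calls are therefore no independent support.

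Pericytes and smooth muscle cells carry PDGF receptors, and 2 of their 7 measured markers, ACTA2 and TAGLN, were lower in PK7, PK19, PK25 and V8. In the main fit with all arrays PDGFRA was called lower only in PK7 and PK19. It was also called lower in V8 with the dimmest 30% of probe sets left out and with a replicate block by set number. The 7 measured markers averaged 6.43 to 6.57 per array in PK7, 6.38 to 6.45 in PK19 and 6.52 to 6.65 in PK25, against 6.94 to 7.13 in V22 of the second series, and V8 had 6.72 to 6.95, against 7.19 to 7.32 in V22 of the first. In PK7 and in PK19, 1 was called higher and 3 lower, and the median difference of the 7 was -0.10 and -0.15. In PK25 2 were called lower and in V8 3, with none higher in either. The shares called were 57.1% in PK7 and in PK19, 28.6% in PK25 and 42.9% in V8. Of all probe sets 15.2%, 14.0%, 1.37% and 8.00% were called in these clones. The contractile genes ACTA2 (-1.68 in PK7 and -2.85 in PK19) and TAGLN (-2.28 and -2.60) had the largest differences, while MYH11 (0.22 and 0.18) and DES (-0.04 and -0.15) lay near V22. ACTA2 and TAGLN stood at -1.44 and -1.65 in PK25 and at -0.69 and -1.92 in V8. MYH11 and DES were 0.18 and 0.07 in PK25 and -0.16 and -0.09 in V8. The pericyte marker RGS5 stood at 0.57 in PK7 and 1.46 in PK19 and was among the dimmest 30% of probe sets. The part of these markers in the PDGFRA result was not tested.

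PDGFRB, the receptor of PDGF-B and a marker of pericytes, read 6.90, 7.81 and 6.98 in PK7, against 6.58, 6.60 and 6.51 in V22 of the second series. All PK7 arrays lay above all V22 arrays, and the array of set 2 lay farthest from them. PDGFRB was 0.67 higher in PK7 (SE 0.22, limma adjusted p = 0.046). Without the PK7 set 2 array the difference was 0.38 (adjusted p = 0.306), and it was also not called with any 1 of the 3 V22 arrays left out (adjusted p 0.091 to 0.125). PK19 read 6.60, 7.14 and 6.54 and PK25 read 6.09, 6.98 and 6.64, with differences of 0.20 (adjusted p = 0.716) and 0.01 (adjusted p = 0.994). V8 read 6.26, 5.81 and 6.06 and V17 read 6.73, 6.66 and 6.56, against 6.70, 6.54 and 6.75 in V22 of the first series. All V8 arrays lay below all V22 arrays, with a difference of -0.62 (SE 0.22, adjusted p = 0.101). A replicate block by set number called this difference. In the alternative without the set 2 arrays and V22 set 5, added after the data were seen, it was -0.56 (adjusted p = 0.044). That alternative called 2324 of 26947 probe sets in V8, and its call is no independent support. The shift of PK7 exceeded that of V8 by 1.29 (SE 0.31, adjusted p = 0.020), in a comparison in which 2 of 10 receptors, PDGFRB and ERBB2, and 5.21% of all probe sets were called. Without V8 set 2 this PDGFRB difference was 1.17 (adjusted p = 0.054).

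The promoters of the receptors whose levels differed are shown as the 250 bases before the RefSeq start of GRCh38.p14, from entries that matched 8 of the 10 genes by symbol (not ERBB3 and FGFR1). Capitals mark a GC box, GGGCGG or CCGCCC, and each is written 5′ to 3′ on the gene's strand.
PDGFRA, chr4:54229043-54229292, plus strand: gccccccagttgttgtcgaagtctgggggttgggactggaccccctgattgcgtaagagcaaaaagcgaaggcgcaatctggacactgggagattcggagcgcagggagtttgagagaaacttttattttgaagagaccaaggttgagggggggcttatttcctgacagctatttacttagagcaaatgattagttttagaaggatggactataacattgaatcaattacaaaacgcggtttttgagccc
PDGFRB, chr5:150155846-150156095, minus strand: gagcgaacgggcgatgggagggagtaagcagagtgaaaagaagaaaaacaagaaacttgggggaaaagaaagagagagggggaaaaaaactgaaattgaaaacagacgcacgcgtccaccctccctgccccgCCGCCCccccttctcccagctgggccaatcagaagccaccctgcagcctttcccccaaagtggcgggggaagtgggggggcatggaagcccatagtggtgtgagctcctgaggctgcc
ERBB2, chr17:39687844-39688093, plus strand: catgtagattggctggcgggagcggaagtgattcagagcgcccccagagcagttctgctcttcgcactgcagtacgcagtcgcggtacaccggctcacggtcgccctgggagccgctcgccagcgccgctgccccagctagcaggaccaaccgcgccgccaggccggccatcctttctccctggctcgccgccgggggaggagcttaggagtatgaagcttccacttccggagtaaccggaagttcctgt
The PDGFRA window held no GC box, and 8 CG pairs at 46.8% GC. A second PDGFRA start listed by RefSeq, at chr4:54233710-54233959, held 2 GC boxes and 25 CG pairs at 64.0% GC. The PDGFRB window held 1 GC box and 9 CG pairs, and the ERBB2 window no GC box and 23 CG pairs. Each of the windows of PDGFRB and ERBB2 held 1 CCAAT box, CCAAT or ATTGG. Among 35116 promoter windows of the same length, 42.6% held a GC box and 32.0% a CCAAT box, on either strand with overlapping matches counted, and the median was 11 CG pairs. A match is a description of the letters and no test of binding.

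KIT, the receptor of stem cell factor, lay between 3.12 and 3.91 on all 21 arrays. It read 3.47, 3.56 and 3.59 in PK7, against 3.65, 3.82 and 3.63 in V22 of the second series. These PK7 arrays lay below V22, and each of the other clones overlapped V22 of its series. It differed from V22 by -0.16 (PK7), -0.20 (PK19), -0.11 (PK25), 0.01 (V8) and -0.10 (V17), none called.

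FGFR1, a receptor of fibroblast growth factors, was called in all 3 comparisons between parkin clones. FGFR1 read 9.60, 9.66 and 9.58 in PK7, 8.66, 8.80 and 8.71 in PK19, and 9.17, 9.23 and 9.21 in PK25, against 9.35, 9.27 and 9.29 in V22 of the second series. PK7 lay above and PK19 and PK25 below all V22 arrays, without overlap between any of the 4. FGFR1 was 0.31 higher in PK7 (SE 0.08, limma adjusted p = 0.0073) and fell by 0.58 in PK19 (SE 0.08, adjusted p = 1.1e-05), and these were called in every setting tried apart from the 2-fold requirement. The difference in PK25 was -0.10 (adjusted p = 0.674). V8 read 9.31, 9.25 and 9.39 and V17 read 9.19, 9.24 and 9.27, against 9.19, 9.08 and 9.22 in V22 of the first series, with differences of 0.15 and 0.07, and neither was called. All V8 arrays lay above those V22 arrays, and V17 overlapped them.

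Direct comparisons of the parkin clones need no V22. FGFR1 was 0.89 higher in PK7 than in PK19 (SE 0.08, limma adjusted p = 6.1e-08), with 2 of 10 receptors and 15.8% of all probe sets called. It was 0.40 higher in PK7 than in PK25 (adjusted p = 0.00082), the only receptor called where 13.9% of probe sets were, and fell by 0.48 in PK19 against PK25 (adjusted p = 0.00011), again the only one, where 14.9% were. The shift of PK19 differed from that of V8 by -0.74 (SE 0.11, adjusted p = 0.00014), the only receptor called, where 6.22% of all probe sets were. In PK25 no receptor's shift differed from that of V8 by limma, with 4 at an unadjusted p under 0.05, where 1.96% of all probe sets were called and 13.3% had such a p. PDGFRA differed between PK19 and PK25 by -0.93 (adjusted p = 0.053) and between PK7 and PK25 by -0.74 (adjusted p = 0.141). Between the vector clones V8 and V17 no receptor was called by limma, with 5 at an unadjusted p under 0.05, where 8.31% of all probe sets were called and 19.8% had such a p. PDGFRA was the nearest there, at -1.01 (adjusted p = 0.052). With a replicate block by set number PDGFRA and PDGFRB were both called between V8 and V17.

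ERBB2, the coreceptor of the ERBB family that binds no ligand of its own, read 6.45, 6.68 and 6.53 in PK7, against 6.23, 6.09 and 6.22 in V22 of the second series. All PK7 arrays lay above all V22 arrays. ERBB2 was 0.37 higher in PK7 (SE 0.12, limma adjusted p = 0.048), and the call was lost with any 1 V22 array left out (adjusted p 0.083 to 0.162) and without the PK7 array of set 2 (0.183) or set 3 (0.088). PK19 read 6.23, 6.15 and 6.02 and PK25 read 6.08, 6.12 and 6.59, both overlapping V22. V8 read 5.99, 5.80 and 5.98, against 6.40, 6.23 and 6.40 in V22 of the first series, and lay below it without overlap, by 0.42 (SE 0.12, adjusted p = 0.041), a call lost in 5 of the 6 versions with 1 array left out. V17 read 6.06, 6.13 and 6.38, a difference of -0.15 that was not called. ERBB2 was 0.42 higher in PK7 than in PK19 (adjusted p = 0.023), a call lost without PK7 set 2 (0.097) or set 3 (0.053) and without PK19 set 2 (0.051) or set 3 (0.109). The PK7 shift exceeded the V8 shift by 0.80 (SE 0.18, adjusted p = 0.011), which was not called without the set 2 arrays and V22 set 5 (0.68, adjusted p = 0.118).

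EGFR, the receptor of EGF and TGF-alpha, read 8.55, 8.20 and 8.53 in PK7, 8.45, 8.89 and 8.45 in PK19, and 8.39, 8.41 and 8.22 in PK25, against 8.58, 8.45 and 8.53 in V22 of the second series. PK7 and PK19 overlapped V22, and PK25 lay below it. Its differences were -0.10, 0.07 and -0.18 in PK7, PK19 and PK25, and 0.30 in V8 and 0.02 in V17, none called. All V8 arrays, at 8.53 to 8.73, lay above all V22 arrays of the first series, at 8.20 to 8.42. ERBB3, a neuregulin receptor, stayed between 4.38 and 4.90 on all arrays, with differences of at most 0.13.

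MET, the receptor of hepatocyte growth factor, read 11.08, 10.94 and 11.14 in PK7, 10.98, 10.95 and 10.97 in PK19, and 10.90, 10.90 and 10.88 in PK25, against 11.21, 10.92 and 11.20 in V22 of the second series. All PK25 arrays lay below all V22 arrays, by 0.22 (limma adjusted p = 0.36), and PK7 and PK19 overlapped V22. AXL, a receptor of GAS6, read 10.19, 10.15 and 10.20 in PK7, 10.31, 10.27 and 10.16 in PK19, and 10.17, 9.83 and 10.04 in PK25, against 10.51, 10.00 and 10.52 in V22. The low V22 array was that of set 5, and through it all 3 parkin clones overlapped V22. In the first series MET differed from V22 by 0.26 in V8 (adjusted p = 0.098) and 0.04 in V17, and AXL by -0.25 and -0.07, none called. There all V8 arrays lay above all V22 arrays for MET, at 10.97 to 11.16 against 10.76 to 10.80. For AXL they lay below, at 9.48 to 9.80 against 9.84 to 10.06, and V17 overlapped V22 for both receptors. Without the set 2 arrays and V22 set 5, AXL was -0.33 in PK7 and -0.41 in PK25, each at an adjusted p of 0.028. MET was then -0.31 in PK25 (adjusted p = 0.035). This setting was chosen after the data were seen and leaves out the low V22 array, so its p-values are no independent support. It called 4038 of 26947 probe sets in PK7 and 1080 in PK25. IGF1R, the receptor of insulin-like growth factors, lay between 6.82 and 7.47 with overlapping clones, and its differences in PK7, PK19 and PK25 were 0.13, 0.22 and 0.12, none called. Its other probe set read means of 5.88, 6.18 and 5.88 in those clones, against 6.09 in V22, so the probe sets of IGF1R did not give the same order.

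Taking the clone as the replicate, the 3 parkin clones were set against the 3 vector clones after the first series was shifted, for each probe set, to the V22 level of the second. No receptor was called by limma, with 3 at an unadjusted p under 0.05, PDGFRA, MET and IGF1R, while 0.00371% of all probe sets were called and 14.1% had such a p. PDGFRA averaged 5.66 ± 0.49 in parkin clones and 6.51 ± 0.58 in vector clones (SD, n = 3 clones each), a difference of -0.85 (SE 0.35, adjusted p = 0.351). MET averaged 10.97 ± 0.08 in parkin clones and 11.21 ± 0.14 in vector clones (adjusted p = 0.348). IGF1R averaged 7.11 ± 0.06 in parkin clones and 6.89 ± 0.07 in vector clones (adjusted p = 0.319). The other IGF1R probe set did not share this order, with means of 5.88 in PK7, 6.18 in PK19 and 5.88 in PK25, against 6.09 in V22 of the second series. The clone means did not overlap for 4 receptors, PDGFRB and IGF1R higher and KIT and MET lower in parkin clones, and over all probe sets 12.3% were higher and 10.9% lower without overlap. For PDGFRA the groups overlapped, because V8, at 5.84, lay below PK25, at 6.22. Without linking, MET differed by 0.04 and AXL by 0.26, where the linked differences were -0.24 and -0.09. The link rests on V22 alone, and between its first and second series PDGFRA differed by 0.92 (SE 0.31), MET by -0.33 and AXL by -0.43. Without the set 2 arrays and V22 set 5 these were 1.36, -0.43 and -0.67, all called (adjusted p = 0.002, 0.028 and 0.013). That setting was chosen after the data were seen, and it called 181 of 26947 probe sets here. With all arrays none was called by limma, with 3 receptors at an unadjusted p under 0.05 while 0.0297% of all probe sets were called and 8.75% had such a p.

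PDGFRA lies on chromosome 4 beside KIT and KDR, and KDR, the VEGF receptor, is itself a receptor tyrosine kinase. KDR read 6.88, 6.06 and 6.88 in PK7, 6.31, 6.13 and 6.21 in PK19, and 7.26, 7.25 and 6.80 in PK25, against 9.09, 8.63 and 8.89 in V22 of the second series. All parkin arrays lay below all V22 arrays. KDR fell by 2.26 in PK7, by 2.65 in PK19 and by 1.77 in PK25 (SE 0.20 each, limma adjusted p = 1e-07, 7.2e-09 and 5.6e-05). V8 read 7.92, 8.07 and 7.97, against 9.04, 8.86 and 9.22 in V22 of the first series, and KDR fell by 1.05 there (adjusted p = 0.0015). V17, at 8.94, 8.84 and 9.43, overlapped V22. Of 8 endothelial markers, 1 was called higher in PK7 and 1 lower in PK19, and their array means were 5.72 to 5.79 in PK7, 5.49 to 5.56 in PK19 and 5.60 to 5.84 in PK25, against 5.62 to 5.70 in V22 of the second series. They were 5.57 to 5.69 in V8, against 5.52 to 5.60 in V22 of the first. TEK, an endothelial receptor, stood at -0.91 in PK19 and -0.51 in PK25. It lay above V22 in PK7 (0.14) and V8 (0.49), where KDR was lower. PECAM1 lay above V22 by 0.27 to 0.43 in the parkin clones and stood at -0.21 in V8. The part of the endothelial markers in the KDR result was not tested. PECAM1 and VWF were among the dimmest 30% of probe sets.

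Among the 20 nearest expressed genes around PDGFRA, KDR was the only one below it in PK7, PK19, PK25 and V8. Expressed here means a mean log2 above 7 over all 21 arrays, so dim neighbours such as KIT were left out. KDR, at a mean of 7.84, passed through its vector arrays, as its means were 6.61 in PK7 and 6.22 in PK19. The choice of neighbours is thus not independent of the clone differences. The 20 had a median of -0.27 in PK7, of -0.09 in PK19, of -0.05 in PK25 and of 0.19 in V8. Around FGFR1 on chromosome 8 20 genes had a median of 0.20 in PK7, of -0.14 in PK19, of -0.04 in PK25 and of 0.07 in V8, and none of the 20 lay below FGFR1 in PK19, where GINS4 was the next lowest at -0.51 and the adjacent gene TACC1 stood at -0.47. In PK7, 14 of the 20 lay below FGFR1, and PLPP5 at 0.95 and DDHD2 at 0.82 were the highest.

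**Figure D3:**
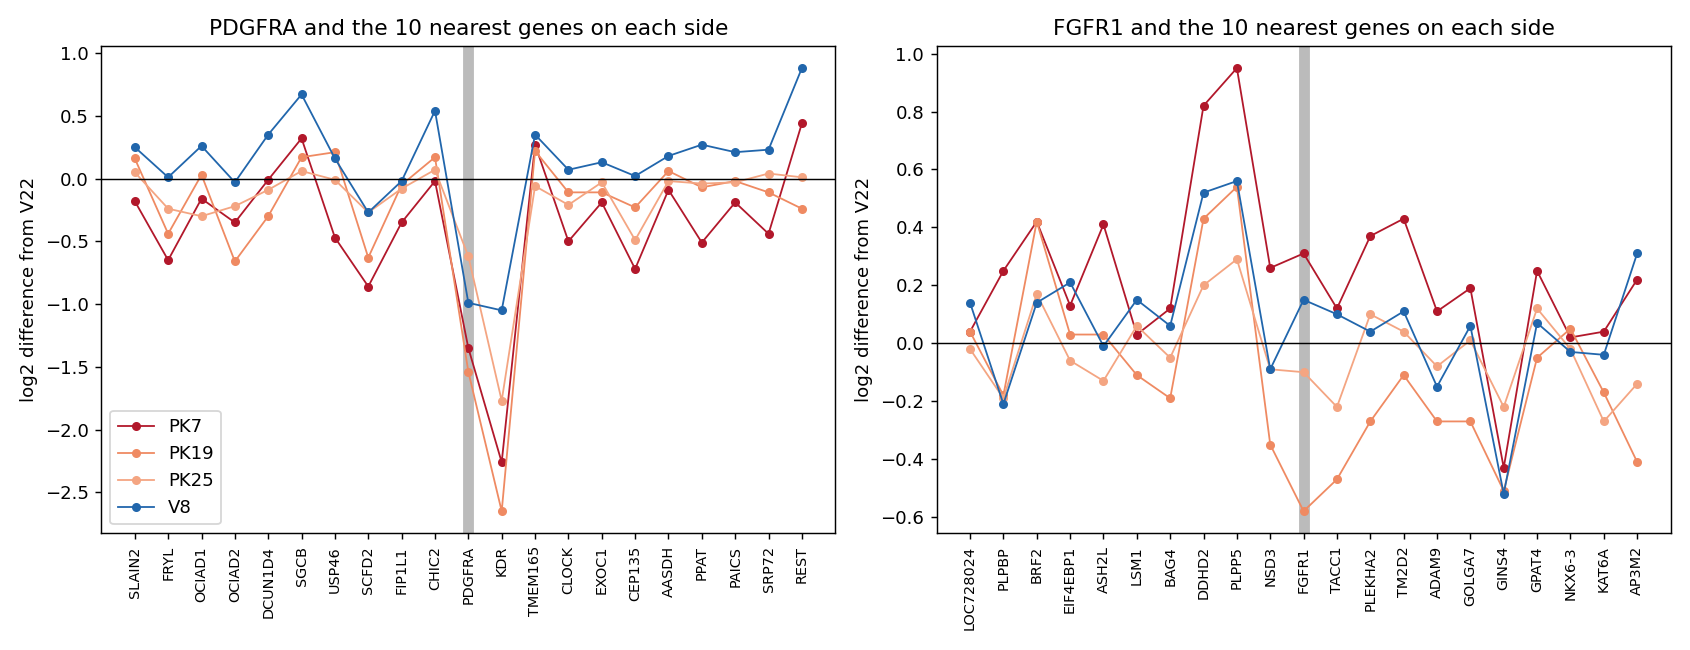
Difference from V22 (log2, y axis) of PDGFRA, left panel, and FGFR1, right panel, with the 10 nearest expressed genes on each side in chromosome order; lines join PK7, PK19, PK25 and V8. KDR is the lowest point of the left panel in all 4 clones, at -1.05 in V8.

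The genes of closest pattern to PDGFRA were sought among 8714 expressed genes by root mean square distance over the 5 differences from V22. They were SDC3 at a distance of 0.21, SH3RF2 at 0.225 and PTPRS at 0.232. SDC3, a cell-surface heparan sulfate proteoglycan, differed by -1.03 (PK7), -1.77 (PK19), -0.79 (PK25), -0.82 (V8) and -0.06 (V17).

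Of the ligands of the ERBB receptors 10 of 11 were measured, with 2 called higher and 1 lower in PK7, 3 higher in PK19, and 1 higher each in PK25 and V8. For these 4 clones, in that order, 15.2%, 14.0%, 1.37% and 8.00% of all probe sets were called. TGFA, an EGFR ligand, read 7.72, 7.85 and 7.76 in PK7, 8.85, 9.02 and 8.86 in PK19, and 8.23, 7.83 and 8.08 in PK25, against 7.21, 7.19 and 7.23 in V22 of the second series. All 9 parkin arrays lay above the V22 arrays. TGFA was higher by 0.57 in PK7, 1.70 in PK19 and 0.84 in PK25 (SE 0.10 each, limma adjusted p = 0.00054, 3.9e-10 and 0.00017), and its differences in V8 and V17, -0.03 and -0.15, were not called. NRG1, a ligand of ERBB3, was higher by 1.20 in PK7 and 2.88 in PK19 (SE 0.16), while PK25 stood at -0.42, not called. HBEGF, another EGFR ligand, fell by 1.39 in PK7, and EREG was higher by 1.30 in PK19 and by 1.43 in V8. The ligand lists were chosen with results of these samples known, so their directions are no independent evidence.

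Ligands of the PDGF, KIT and CSF1 receptors were called in small numbers, 2 of 7 higher in PK7, 1 higher and 1 lower in PK19, 1 of each in V8, and none in PK25 by limma (2 at an unadjusted p under 0.05). That is 28.6% of the 7 in PK7, PK19 and V8, where 15.2%, 14.0% and 8.00% of all probe sets were called. In PK25 1.37% of all probe sets were called and 11.3% had an unadjusted p under 0.05. PDGFA, a PDGFRA ligand, was higher by 0.42 in PK19 and by 0.65 in V8. KITLG, the KIT ligand, was higher by 0.52 in PK7 and fell by 0.87 in PK19. CSF1 was 1.65 higher in PK7. Of 11 measured ligands of MET, AXL, FGF and IGF1 receptors, 2 were higher and 2 lower in PK7, 3 higher and 2 lower in PK19, 1 lower in V8, and none in PK25 by limma (1 at an unadjusted p under 0.05). That is 36.4% of the 11 in PK7, 45.5% in PK19 and 9.09% in V8, beside the same shares of all probe sets. HGF, the MET ligand, fell by 1.56 in PK7. FGF5, a ligand of FGFR1, fell by 1.41 in PK7 and by 1.84 in PK19, while FGF2 was higher by 0.62 and 0.50 in those clones. GAS6, the AXL ligand, fell by 1.10 in V8, and PROS1, a related ligand of the TAM receptors, was higher by 0.80 in PK7 and 0.99 in PK19.

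**Figure D4:**
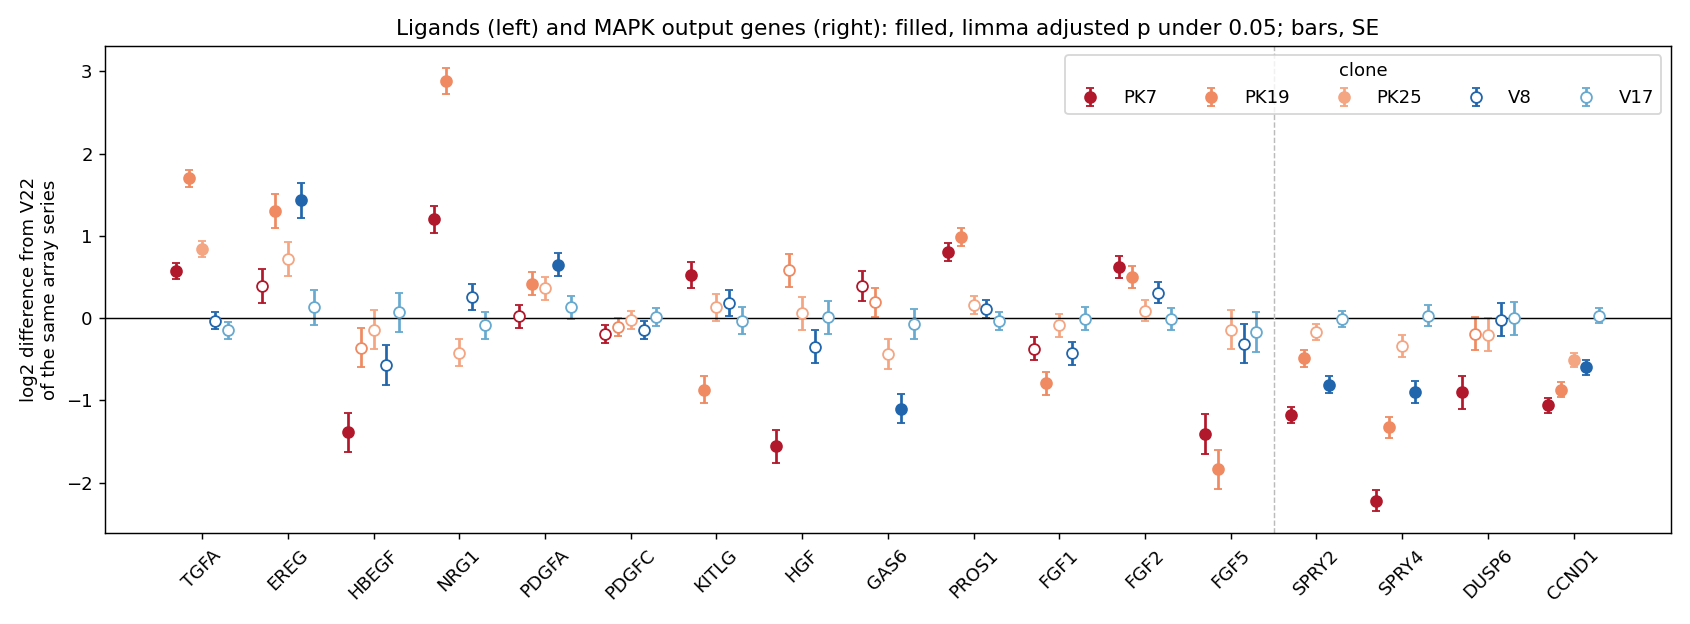
Difference from V22 (log2, y axis) with standard errors for ligands of the 10 receptors, left, and for SPRY2, SPRY4, DUSP6 and CCND1, right, by clone. TGFA is above V22 in PK7, PK19 and PK25, and SPRY4 reaches -2.22 in PK7.

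Of 39 other measured receptor tyrosine kinases, 3 were called higher and 5 lower in PK7, 1 higher and 7 lower in PK19, 1 lower in PK25, and 1 higher and 6 lower in V8. That is 20.5% in PK7 and in PK19, 2.56% in PK25 and 17.9% in V8. Of all probe sets 15.2%, 14.0%, 1.37% and 8.00% were called in PK7, PK19, PK25 and V8. The ephrin receptor EPHA5 fell by 2.49 in PK7, 0.59 in PK19 and 0.82 in V8. ROR1, a WNT5A receptor, fell by 1.81 in PK19 and by 0.88 in V8, and EPHB1 was 1.59 higher in PK7. Among 20 adaptors and RAS-MAPK genes, 3 were higher and 2 lower in PK7 and 1 higher and 2 lower in PK19, where the RAS exchange factor SOS2 fell by 1.53. Among 19 PI3K-AKT genes, 5 were higher and 2 lower in PK7, 4 lower in PK19, and 2 of each in V8. These are 36.8% in PK7 and 21.1% in PK19 and in V8, beside the same shares of all probe sets. PIK3R3, a regulatory subunit of PI3 kinase, was higher by 1.77 in PK7 and by 0.84 in V8. None of these signal-chain genes was called by limma in PK25, with 2 adaptor genes and 4 PI3K-AKT genes at an unadjusted p under 0.05, where 11.3% of all probe sets had such a p.

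Of 38 negative regulators, 1 was higher and 8 lower in PK7, 6 higher and 7 lower in PK19, 1 higher and 4 lower in V8, and none was called by limma in PK25 (7 at an unadjusted p under 0.05). That is 23.7% called in PK7, 34.2% in PK19 and 13.2% in V8. Of all probe sets 15.2%, 14.0% and 8.00% were called in these clones. In PK25 1.37% of all probe sets were called and 11.3% had an unadjusted p under 0.05. Of 18 MAPK output genes, none was higher and 8 were lower in PK7, 2 higher and 7 lower in PK19, 1 lower in PK25, and 1 higher and 5 lower in V8. The median differences of the MAPK output genes were -0.36 (PK7), -0.15 (PK19), -0.06 (PK25) and -0.11 (V8). SPRY2, SPRY4, SPRED1, SPRED2, DUSP4, DUSP5 and DUSP6 are in both of these lists, so their counts are not separate results. EPHA2 and EPHA4 are likewise both MAPK output genes and other receptors. SPRY4, a Sprouty inhibitor of receptor signalling, read 7.15, 6.79 and 7.28 in PK7 and 7.84, 8.14 and 7.91 in PK19, against 9.27, 9.37 and 9.25 in V22 of the second series. All arrays of these clones lay below V22. SPRY4 fell by 2.22 in PK7, 1.33 in PK19 and 0.90 in V8 (SE 0.13), and SPRY2 by 1.18, 0.49 and 0.81. CCND1, the cyclin D1 gene, read 10.48, 10.51 and 10.49 in PK7, 10.74, 10.66 and 10.63 in PK19, and 10.99, 11.23 and 10.89 in PK25, against 11.57, 11.50 and 11.57 in V22. It fell by 1.06, 0.87 and 0.51 in PK7, PK19 and PK25 and by 0.60 in V8 (SE 0.09, limma adjusted p = 4.7e-08, 3.9e-07, 0.0036 and 0.00014). DUSP6, a MAPK phosphatase, fell by 0.90 in PK7. Between the 3 parkin and 3 vector clones, none of the genes in the 8 lists was called by limma, and the lists held 1 to 5 genes at an unadjusted p under 0.05. In V17 none was called either, with at most 1 per list at an unadjusted p under 0.05. Over all probe sets, 0.00371% were called between the parkin and vector clones and 14.1% had such a p. In V17 these shares were 0.00% and 2.71%.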

How the data were processed

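The authors deposited linear RMA intensity for 26947 probe sets on 21 arrays. The submitters' processing notes name RMA, with no version. If the series were normalized jointly is not given in the sources used here. The deposited intensities were turned into log2 values, and limma 3.58.1 (lmFit, eBayes) in R 4.3.3 was fitted to them, with 1 coefficient for each clone and series, contrasts, and Benjamini-Hochberg adjustment over all probe sets, with no filter. Parkin and vector clones were compared on 6 clone means. Precision is limited by how many arrays and clones there are. No column of per-sample values went unused.

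Gene symbols came from the platform annotation: 19305 probe sets had 1 symbol, 1750 several and 5892 none. A further probe set that names PDGFRB with another gene was not used. Chromosomes, gene order and promoters came from RefSeq, GRCh38.p14. The members and lists were chosen with earlier results of these data known. All 10 receptors are described. Up to 4 genes per list are named, those called with at least a 2-fold difference in the most parkin clones, besides direct ligands, DUSP6, GINS4, TACC1, PLPP5 and DDHD2; the last 5 were chosen after their values were seen. Genes of like pattern are the 3 nearest with a mean log2 above 7.

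On simulated data for PK7 minus V22, 49 of 50 probe sets changed by 1 on the log2 scale were recovered, and 49 of 50 changed by -1. Pairing by set number was checked by correlating deviations from clone means. In the first series same-set arrays correlated at 0.0591 to 0.216, above the -0.141 to 0.0533 of different sets, and in the parkin clones at -0.0917 to 0.381, against -0.365 to 0.323. As not every same-set value passed 0.1, the numbers were not taken as pairs in the main fit. In the first series all same-set values nonetheless lay above the others. Fits with a replicate block by set number, which called PDGFRA and PDGFRB lower in V8, are therefore given as an alternative. Alternatives were quantile normalization, centring, a filter on dim probe sets, variance settings, a 2-fold rule, other links of the series, a replicate block and leaving out single arrays or clones.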

Additional observations from a re-analysis of the deposited data

Results flagged for a closer look

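Clones that carry the same insert were set against each other by a test of the difference itself. FGFR1 was 0.89 higher in PK7 than in PK19, 0.40 higher in PK7 than in PK25, and differed by -0.48 between PK19 and PK25 (limma adjusted p = 6.1e-08, 0.00082 and 0.00011). ERBB2 was 0.42 higher in PK7 than in PK19 (adjusted p = 0.023), but this call was lost in 4 of the 6 versions with 1 array left out. The share of all probe sets called was 15.8% between PK7 and PK19, 13.9% between PK7 and PK25 and 14.9% between PK19 and PK25.

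Shifts from V22 also differed between a parkin clone and the vector clone V8. The shift of PK7 minus that of V8 was 0.80 for ERBB2 and 1.29 for PDGFRB (limma adjusted p = 0.011 and 0.02), and the shift of PK19 minus that of V8 was -0.74 for FGFR1 (adjusted p = 0.00014). Leaving out 1 array gave adjusted p of 0.012 to 0.031 for ERBB2, 0.012 to 0.054 for PDGFRB and 0.00015 to 0.00085 for FGFR1. The 2 shifts come from different array series. Groups of 3 arrays are too small for a test of single outlying arrays.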

How the results depend on the processing

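Limits: 3 clones a group, 1 clone linking the series and 3 arrays a clone set the precision, and the arrays may be technical repeats. Dim receptors (ERBB3, KIT) are near background. Each value is a log2 difference or a number of the 10 receptors called by limma at adjusted p under 0.05. The settings gave the PDGFRA difference in PK7 as -1.60 to -1.13 and in PK19 as -1.68 to -1.15, and the FGFR1 difference as 0.26 to 0.34 in PK7 and -0.64 to -0.55 in PK19, all called apart from the 2-fold rule for FGFR1. The cause of the changes below was not tested, except that the 2-fold rule asks for more and the dim filter tests fewer probe sets.

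Receptors called, where the number moved by over 1.5 times, were as follows. With the 2-fold rule they were 1 in PK7 minus V22, 1 in PK19 minus V22, and 0 in V8 minus V22, PK7 minus PK19, PK7 minus PK25 and PK19 minus PK25. With arrays centred they were 2 in PK7 minus V22, and with quantile normalization 2 in PK7 minus PK25. With the dim filter they were 2 in V8 minus V22, PK7 minus PK25 and PK19 minus PK25 and 1 in V8 minus V17. With the replicate block they were 3 in V8 minus V22 (ERBB2, PDGFRA -0.99 at adjusted p 0.018 and PDGFRB -0.62 at 0.01), 1 in PK7 minus PK19 (ERBB2 0.42 lost its call at 0.118), 2 in PK7 minus PK25 and 2 in V8 minus V17 (PDGFRA -1.01 at 0.016 and PDGFRB -0.60 at 0.011), and 2 in parkin minus vector with arrays unlinked (PDGFRA -1.77, AXL 0.33). No pairing of V22 sets 4 to 6 was possible because they share no set number with the parkin arrays. Without the set 2 arrays and V22 set 5, a setting chosen after seeing the data, they were 3 in PK25 minus V22, 2 in V8 minus V22, 1 in PK7 minus PK19, 3 in PK7 minus PK25, 2 in PK19 minus PK25 and 1 in V8 minus V17. Leaving out 1 array gave 2 to 4 in PK7 minus V22, 0 to 2 in V8 minus V22, 1 to 2 in PK7 minus PK19, PK7 minus PK25 and PK19 minus PK25, and 0 to 1 in V8 minus V17. The shift comparisons and V22 between the series were also recomputed after seeing the data. In PK7 shift minus V8 shift 1 receptor was called with the 2-fold rule, 1 without the set 2 arrays and V22 set 5, and 1 to 2 with 1 array left out. In PK19 shift minus V8 shift it was 0 with the 2-fold rule, 2 with trended variance, 2 without set 2 and V22 set 5, and 1 to 2 with 1 array left out, the added receptor being MET. In PK25 shift minus V8 shift it was 1, MET, with the dim filter, with trended variance and without set 2 and V22 set 5, and 0 to 1 with 1 array left out. In V22 first minus V22 second it was 3 without set 2 and V22 set 5.

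Signs turned for these small differences. Centring gave ERBB3, PK7 minus V22 as -0.02 and PDGFRB, PK25 minus V22 as -0.03. Quantile normalization gave PDGFRB, PK25 minus V22 as -0.02, ERBB3, V8 minus V22 as -0.01 and PDGFRA, V17 minus V22 as -0.01. The mean of both IGF1R probe sets gave IGF1R, PK7 minus V22 as -0.04 and IGF1R, PK25 minus V22 as -0.05. Without the set 2 arrays and V22 set 5, EGFR, PK19 minus V22 was -0.11, PDGFRB, PK25 minus V22 -0.18, KIT, PK25 minus V22 0.01 and PDGFRA, PK7 minus PK19 -0.22, and PDGFRA, PK19 shift minus V8 shift was 0.01. In parkin minus vector, EGFR was 0.02 and MET 0.09 and AXL 0.33 with first-series vector arrays alone and also with the replicate block, and MET was 0.04 and AXL 0.26 with no linking.

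Leaving out 1 array gave these ranges across 0. In PK7 minus V22 they were -0.16 to 0.02 for EGFR, -0.10 to 0.16 for ERBB3 and -0.15 to 0.00 for MET. In PK19 minus V22 they were -0.07 to 0.15 for EGFR, -0.10 to 0.01 for ERBB2 and 0.00 to 0.25 for ERBB3. In PK25 minus V22 they were -0.08 to 0.17 for ERBB2, -0.07 to 0.19 for ERBB3, -0.20 to 0.25 for PDGFRB and -0.03 to 0.21 for IGF1R. In V8 minus V22 they were -0.08 to 0.07 for ERBB3 and -0.16 to 0.13 for KIT, and in V17 minus V22 -0.25 to 0.40 for PDGFRA and -0.08 to 0.03 for PDGFRB. PDGFRA, PK7 minus PK19 ranged from -0.06 to 0.33, ERBB2, PK19 minus PK25 from -0.22 to 0.04 and PDGFRB, PK19 minus PK25 from -0.05 to 0.40. Leaving out 1 clone gave FGFR1, parkin minus vector as -0.42 to 0.03.

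Over all probe sets, parkin minus vector called 1 as reported, 0 in the second series alone, 844 with clone as a random block, 4097 with the replicate block on arrays, 3 without V8 and 38 without PK25. PK25 minus V22 called 368, against 134 to 561 with 1 array left out and 1080 without set 2 and V22 set 5. V22 first minus V22 second called 8, against 0 to 5 with 1 array left out, 3 centred, 17 with trended variance and 181 without set 2 and V22 set 5. The 2-fold rule left 620 of 4101 in PK7 minus V22, 778 of 3784 in PK19 minus V22, 52 of 368 in PK25 minus V22 and 264 of 2155 in V8 minus V22.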
